A study of Mus musculus with 4 samples.

Results

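The genes described here are 45 genes of the cell cycle and of DNA replication, picked by gene symbol from a table of 22083 mouse genes, and all 45 had a row. They comprised 11 genes of DNA replication, 19 genes of mitosis and of the approach to it, and 15 genes that act in G1 or restrain it. RNA was sequenced from group 2 innate lymphoid cells (ILC2s), tissue-resident lymphocytes that lack antigen receptors and make type 2 cytokines. All cells came from WT C57BL/6 mice, 9 weeks old, and were isolated on a cell sorter. In 2 libraries they came from small intestinal lamina propria (SI-ILC2s), and in 2 libraries from fat, mesenteric white adipose tissue (WAT-ILC2s). The labels name no treatment, no engineered allele, no sort markers and no number of mice. The comparison asks how ILC2s of the intestine differ from those of the neighbouring fat in the genes that license, copy and divide the genome.

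A lymphocyte that leaves rest first makes D-type cyclins, which activate the kinases CDK4 and CDK6. These phosphorylate the retinoblastoma protein and its relatives, which frees E2F transcription factors to switch on genes of DNA replication. The MCM helicase is loaded onto origins by the origin recognition complex together with CDC6 and CDT1, and mitotic genes are switched on later through promoter elements named CHR and CCAAT. ILC2s are known as long-lived resident cells that divide rarely at rest and expand after signals such as IL-33 or IL-25.

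Values are RPKM, reads scaled to gene length and to the depth of the library, as the authors deposited them, so levels of different genes can be compared per length. Estimated from the steps between low values, depth was about 76400000 and 60100000 reads in SI-ILC2s and 55900000 and 65400000 reads in WAT-ILC2s. At these depths 0.1 RPKM stands for 5.59 to 7.64 reads per kilobase of gene. Libraries of the same tissue correlated at a Pearson's r of 0.985 (SI-ILC2s) and 0.979 (WAT-ILC2s) across tested genes, which are not independent replicates, and those of different tissues at 0.863 to 0.880. Gata3, the lineage-defining factor of ILC2s, had 354 and 377 RPKM in SI-ILC2s, against 338 and 397 RPKM in WAT-ILC2s. Of the 12 ILC2 markers, 4 were higher and 4 lower in SI-ILC2s in the test described below, against 17.9% and 29.6% of tested genes. Among them, Il17rb had 164 and 141 RPKM in SI-ILC2s, against 14.3 and 10.3 RPKM in WAT-ILC2s. Il1rl1 had 14.3 and 15.4 RPKM in SI-ILC2s, against 65.7 and 63.4 RPKM in WAT-ILC2s. Of the T cell genes Cd3d, Cd4, Cd8a, Cd8b1 and Cd5, none exceeded 0.211 RPKM in any library, whereas Cd3g and Lat were higher in WAT-ILC2s. The 8 T cell markers summed to 30.7 to 37.1 RPKM in SI-ILC2s and 56.7 to 77.9 RPKM in WAT-ILC2s. Red cell markers (6 genes, mainly globins) summed to 13.2 to 41.6 RPKM in SI-ILC2s and 88.9 to 140 RPKM in WAT-ILC2s, with Klf1 at 0.082 RPKM or less. Fibroblast markers (6 genes) summed to 0.462 to 0.532 RPKM in SI-ILC2s and 4.48 to 9.88 RPKM in WAT-ILC2s. B and plasma cell markers (7 genes) summed to 19.5 to 25.1 RPKM in SI-ILC2s and 3.38 to 3.52 RPKM in WAT-ILC2s. Adipocyte markers (5 genes) summed to 0.3 to 0.63 RPKM in SI-ILC2s and 4.02 to 4.9 RPKM in WAT-ILC2s, and myeloid markers (9 genes) to 3.37 to 4.52 RPKM in SI-ILC2s and 7.61 to 10.2 RPKM in WAT-ILC2s. Most of the adipocyte sum in WAT-ILC2s was Fabp4 (4.32 and 3.43 RPKM). Adipoq, Plin1 and Lep overlapped between tissues, while Cfd was lower in both SI-ILC2 libraries. The largest part of the myeloid sum in WAT-ILC2s was Lyz2 (3.53 and 5.50 RPKM). Adgre1 and Itgax were also lower in both SI-ILC2 libraries, and the other myeloid markers overlapped. Endothelial (5 genes) and epithelial (9 genes) sums overlapped between tissues, with Krt8 at 4.33 RPKM in SI-ILC2 replicate 2 and at most 0.369 RPKM in the others. The part of these cells in the differences below was not tested.

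Most of the 45 genes had their lower values in the intestine. Both SI-ILC2 libraries lay below both WAT-ILC2 libraries for 28 genes and above them for 1, Ube2c, and for 16 genes the tissues overlapped. Over all genes of the table these shares were 30.8% and 23.0%. Among the 8230 genes abundant enough to be tested, both SI-ILC2 libraries lay below for 45.9% and above for 2456 genes. Genes that reached 1 RPKM in at least 2 libraries were tested with limma on log2(RPKM + 1), with Benjamini-Hochberg adjustment over all 8230 tested genes and a threshold of 0.05. This left 21 of the 45, of which 14 were lower in SI-ILC2s, none was higher and 7 did not pass. In the background, 2436 tested genes (29.6%) were lower and 1470 (17.9%) were higher in SI-ILC2s, or 1817 lower and 1956 higher after median-of-ratios scaling and 1886 lower and 1772 higher after quantile normalization. The median change of all tested genes was -0.15 on the log2 scale (SI-ILC2 minus WAT-ILC2), 0 after median-of-ratios scaling and -0.26 after rescaling to equal sums. The 14 calls include 7 that held under every alternative tried, namely Mcm2, Mcm6, Rrm1, Tk1, Ccnd2, Ccnd3 and Cdk2. Since no label ties a library to its own animals, the p-values cover the spread between these libraries alone, which may be technical. In RNA from many cells, fewer cycling cells and less RNA per cell cannot be told apart, nor can an effect of the isolation from each tissue.

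**Figure D1:**
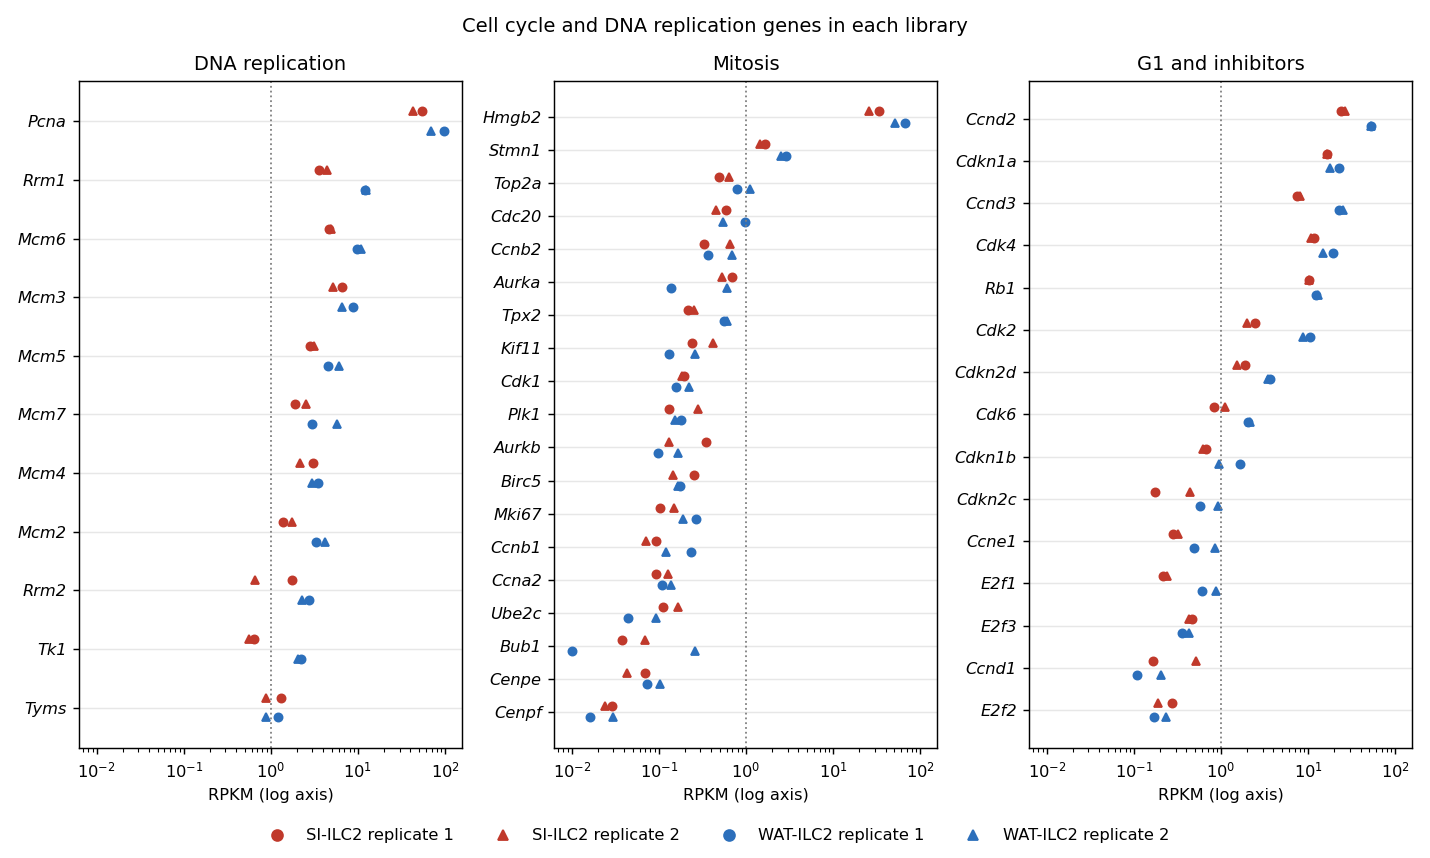
RPKM (log axis) of the 45 genes in each library, by role, with SI-ILC2 libraries in red above WAT-ILC2 libraries in blue, and circles for replicate 1 and triangles for replicate 2. The dotted line marks 1 RPKM. Most replication and G1 genes have their red points to the left of the blue ones, while 16 of the 19 mitosis genes stay under 1 RPKM in every library.

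Among the 11 replication genes, all were tested, 6 were lower in SI-ILC2s and 5 did not pass, against 29.6% of tested genes called lower. The median change of the 11 was -0.71 on the log2 scale, or -0.57 relative to the median of all tested genes. The libraries were separated, with SI-ILC2s below, for 9 of the 11, against 45.9% of tested genes. The exceptions were Mcm4 and Tyms.

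Rrm1 and Tk1 act in the supply of deoxynucleotides, and Rrm1 had the largest log2 change of this group with log2(RPKM + 1), against Tk1 with a pseudocount of 0.1 (-1.69). Rrm1 (chromosome 7, 102441695 to 102469771, GRCm38), the large subunit of ribonucleotide reductase, had 3.53 and 4.45 RPKM in SI-ILC2s, against 11.9 and 12.3 RPKM in WAT-ILC2s. Both intestinal libraries were thus far below both adipose ones, with a log2 change of -1.40 ± 0.15 (SE, limma adjusted p = 0.0011). Rrm2, the small subunit whose level limits the enzyme in S phase, had 1.77 and 0.657 RPKM in SI-ILC2s, against 2.76 and 2.28 RPKM in WAT-ILC2s. Its SI-ILC2 libraries differed from each other more than its WAT-ILC2 libraries did, and its change of -0.71 ± 0.25 had a limma adjusted p of 0.054. Without SI-ILC2 replicate 2 the change was -0.34 (adjusted p = 0.24). It passed with rescaling to equal sums (limma adjusted p = 0.030). Its label also changed without SI-ILC2 replicate 1, WAT-ILC2 replicate 1 or WAT-ILC2 replicate 2, to that of a gene that passed. In such fits the spread of the tissue with a single library is not measured. Tk1 (chromosome 11, 117815526 to 117826092), the thymidine salvage kinase of S phase, had 0.633 and 0.560 RPKM in SI-ILC2s, against 2.22 and 2.07 RPKM in WAT-ILC2s. It passed the filter only through its WAT-ILC2 values, and the change was -0.98 ± 0.12 (limma adjusted p = 0.0016). Exons of Tk1 overlap Afmid on the opposite strand, which had 1.10 and 1.26 RPKM in SI-ILC2s, against 2.14 and 1.68 RPKM in WAT-ILC2s. Such pairs can share reads unless counting used strand, for which no setting is known here. Tyms, which makes thymidylate, had 1.30 and 0.879 RPKM in SI-ILC2s, against 1.22 and 0.875 RPKM in WAT-ILC2s, so the tissues overlapped (log2 change 0.03 ± 0.16, limma adjusted p = 0.90, with a sign that changed under some settings).

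The 6 subunits of the MCM helicase, the ring that unwinds DNA at the fork, had log2 changes of unequal size, and differences between them were not tested. Their values summed to 20.3 and 19.7 RPKM in SI-ILC2s and to 32.7 and 36.4 RPKM in WAT-ILC2s. Mcm6 (chromosome 1, 128331590 to 128359664) had 4.60 and 4.94 RPKM in SI-ILC2s, against 9.68 and 10.9 RPKM in WAT-ILC2s, a log2 change of -0.97 ± 0.14 (limma adjusted p = 0.0029). Mcm2 (chromosome 6, 88883474 to 88898780) had 1.38 and 1.76 RPKM in SI-ILC2s, against 3.29 and 4.20 RPKM in WAT-ILC2s, a log2 change of -0.88 ± 0.17 (limma adjusted p = 0.0067). For both genes the libraries of a tissue lay closer to each other than to those of the other tissue. Mcm5 had 2.84 and 3.15 RPKM in SI-ILC2s, against 4.55 and 6.04 RPKM in WAT-ILC2s (log2 change -0.65 ± 0.17, limma adjusted p = 0.022). Its adjusted p was 0.10, 0.057 and 0.067 without SI-ILC2 replicate 1, SI-ILC2 replicate 2 and WAT-ILC2 replicate 2. Exons of Mcm7 overlap Ap4m1 (1.72 to 2.30 RPKM over the libraries) and Cops6 (2.95 to 4.49 RPKM) on the opposite strand. Mcm7 had 1.88 and 2.51 RPKM in SI-ILC2s, against 2.93 and 5.68 RPKM in WAT-ILC2s. Its WAT-ILC2 libraries were wide apart, so that a log2 change of -0.69 ± 0.27 had a limma adjusted p of 0.072. The change of Mcm7 was -1.07 without WAT-ILC2 replicate 1 and -0.31 without WAT-ILC2 replicate 2, fits in which the spread of WAT-ILC2s is not measured. Mcm3 had 6.49 and 5.14 RPKM in SI-ILC2s, against 8.73 and 6.58 RPKM in WAT-ILC2s, a log2 change of -0.34 with a limma adjusted p of 0.17. It was -0.52 without WAT-ILC2 replicate 2 (adjusted p = 0.042), -0.16 without WAT-ILC2 replicate 1 (0.57) and -0.20 without SI-ILC2 replicate 2 (0.56). Mcm4 had 3.08 and 2.19 RPKM in SI-ILC2s, against 3.49 and 2.95 RPKM in WAT-ILC2s, with a limma adjusted p of 0.32. The most abundant subunit was Mcm3 in both SI-ILC2 libraries and Mcm6 in both WAT-ILC2 libraries, and the highest subunit exceeded the lowest 4.69 and 2.93 times in SI-ILC2s and 3.30 and 3.71 times in WAT-ILC2s.

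Pcna (chromosome 2, 132249162 to 132253314), the sliding clamp of DNA polymerases, was the most abundant of the 45 genes. It had 55.0 and 43.4 RPKM in SI-ILC2s, against 98.2 and 68.4 RPKM in WAT-ILC2s. The tissues did not overlap, but in each tissue the libraries lay well apart, and the log2 change of -0.74 ± 0.22 had a limma adjusted p of 0.034. This call was lost with median-of-ratios scaling (adjusted p = 0.10), without the filter (0.069), and without SI-ILC2 replicate 1 (0.054), SI-ILC2 replicate 2 (0.18) or WAT-ILC2 replicate 1 (0.059). Reads from its pseudogenes Pcna-ps1 and Pcna-ps2 could not be assigned with certainty.

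The promoters of Mcm5 and Mcm6 are shown because both genes were called lower in SI-ILC2s and both hold the E2F element, searched as TTTCGCGC or TTTGGCGC on either strand. Each window runs from 250 bases before to 50 bases after the start of the RefSeq gene (GRCm38.p6), read 5′ to 3′ on the gene's strand, chr8:75109259-75109558 on the plus strand for Mcm5 and chr1:128359656-128359955 on the minus strand for Mcm6. Capitals mark the E2F letters, which match in 2 overlapping places in Mcm5 and in 3 places, of which 2 overlap, in Mcm6.
Mcm5: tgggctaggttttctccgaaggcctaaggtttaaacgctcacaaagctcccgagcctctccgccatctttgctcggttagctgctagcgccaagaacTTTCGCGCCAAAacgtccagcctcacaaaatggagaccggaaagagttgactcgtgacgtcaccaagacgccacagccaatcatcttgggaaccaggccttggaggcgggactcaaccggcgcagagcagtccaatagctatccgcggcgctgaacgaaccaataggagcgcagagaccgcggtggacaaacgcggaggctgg
Mcm6: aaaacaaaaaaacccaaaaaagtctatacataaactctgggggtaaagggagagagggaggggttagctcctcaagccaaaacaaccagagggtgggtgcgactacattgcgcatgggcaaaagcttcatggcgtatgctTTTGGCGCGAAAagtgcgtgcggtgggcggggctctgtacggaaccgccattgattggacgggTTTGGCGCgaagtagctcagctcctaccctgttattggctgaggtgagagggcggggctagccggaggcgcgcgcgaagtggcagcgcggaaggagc

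Mitotic transcripts were scarce in both tissues. Both SI-ILC2 libraries lay below both WAT-ILC2 libraries for 7 of the 19 genes and above for 1, against 30.8% and 23.0% of all genes. Of the 19 mitosis genes, 17 did not reach the filter, and 16 stayed under 1 RPKM in every library. These 17 genes ranged between 0.0244 and 0.694 RPKM in SI-ILC2s, with a median of 0.175, and between 0.0095 and 1.12 RPKM in WAT-ILC2s, with a median of 0.169. Their values summed to 4.03 and 4.35 RPKM in SI-ILC2s and to 4.31 and 5.46 RPKM in WAT-ILC2s. The median position of these values among all genes of a library, ranked by RPKM, was at 46.9% of the way up in SI-ILC2s and at 46.5% in WAT-ILC2s. Pcna, a replication gene that is also used in DNA repair, was 293 to 526 times as high as Mki67 in every library.

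Mki67 (chromosome 7, 135689784 to 135716361), which encodes the Ki-67 protein that coats chromosomes of cycling cells, had 0.104 and 0.148 RPKM in SI-ILC2s, against 0.268 and 0.189 RPKM in WAT-ILC2s. Top2a, the topoisomerase that untangles sister chromatids, had 0.493 and 0.643 RPKM in SI-ILC2s, against 0.784 and 1.12 RPKM in WAT-ILC2s. Tpx2, a factor of spindle assembly, had 0.214 and 0.251 RPKM in SI-ILC2s, against 0.561 and 0.606 RPKM in WAT-ILC2s. In these 3 genes the SI-ILC2 libraries were below the WAT-ILC2 libraries, as they were for Ccnb1 and Cenpe, but none reached the filter. When genes were tested without a filter the limma adjusted p was 0.28 for Mki67, 0.25 for Top2a and 0.063 for Tpx2. The added 1 RPKM shrinks log2 changes at such levels. Tpx2 changed by -0.36, though its WAT-ILC2 mean was 2.51 times its SI-ILC2 mean. Cdk1, the mitotic kinase, had 0.192 and 0.183 RPKM in SI-ILC2s, against 0.157 and 0.220 RPKM in WAT-ILC2s. Ccnb2, one of its cyclins, had 0.333 and 0.663 RPKM in SI-ILC2s, against 0.362 and 0.691 RPKM in WAT-ILC2s. In both genes the tissues overlapped, as they did for the cyclin gene Ccna2, the kinase genes Aurka, Aurkb, Plk1 and Bub1, the survivin gene Birc5, the anaphase activator Cdc20, the kinesin gene Kif11 and the kinetochore gene Cenpf. Ube2c, an enzyme that tags mitotic proteins for destruction, had 0.112 and 0.167 RPKM in SI-ILC2s, against 0.044 and 0.093 RPKM in WAT-ILC2s. It was the single gene of the 45 with both SI-ILC2 libraries above, at values that rest on few reads.

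Hmgb2 and Stmn1, which also act outside division, were the tested genes of this group. Both were lower in SI-ILC2s, against 29.6% of all tested genes. Hmgb2 (chromosome 8, 57511907 to 57515999), a chromatin protein of the high mobility group, had 33.4 and 26.0 RPKM in SI-ILC2s, against 66.8 and 51.0 RPKM in WAT-ILC2s (log2 change -0.96 ± 0.20, limma adjusted p = 0.0093). Its adjusted p was 0.057 without SI-ILC2 replicate 2. Stmn1, which encodes the microtubule destabilizer stathmin, had 1.64 and 1.46 RPKM in SI-ILC2s, against 2.87 and 2.55 RPKM in WAT-ILC2s (log2 change -0.54 ± 0.14, limma adjusted p = 0.020). Libraries of the tissues were separated, but the call was lost with median-of-ratios scaling (adjusted p = 0.052), with quantile normalization (0.072), and without SI-ILC2 replicate 1 (0.063) or 2 (0.10). With Hmgb2 left in, the 19 genes summed to 39.1 and 31.8 RPKM in SI-ILC2s and to 74.0 and 59.0 RPKM in WAT-ILC2s, of which Hmgb2 was the largest part in every library.

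The promoters of Mki67 and Ccnb2 are shown as those of low mitotic genes with 2 CHR matches each. Capitals mark the CHR letters TTTGAA. The number of matches varied in this group, with 1 in the windows of Plk1 and Cdc20 and none in those of Birc5 and Ccnb1. The windows shown are chr7:135716330-135716629 and chr9:70421505-70421804, both on the minus strand and from the same RefSeq table.
Mki67: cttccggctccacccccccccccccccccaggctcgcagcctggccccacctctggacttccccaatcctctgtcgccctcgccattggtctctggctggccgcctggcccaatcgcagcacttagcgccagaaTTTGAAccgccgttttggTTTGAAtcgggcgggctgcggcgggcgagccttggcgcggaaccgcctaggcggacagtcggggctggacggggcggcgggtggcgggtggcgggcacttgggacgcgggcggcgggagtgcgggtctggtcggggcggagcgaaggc
Ccnb2: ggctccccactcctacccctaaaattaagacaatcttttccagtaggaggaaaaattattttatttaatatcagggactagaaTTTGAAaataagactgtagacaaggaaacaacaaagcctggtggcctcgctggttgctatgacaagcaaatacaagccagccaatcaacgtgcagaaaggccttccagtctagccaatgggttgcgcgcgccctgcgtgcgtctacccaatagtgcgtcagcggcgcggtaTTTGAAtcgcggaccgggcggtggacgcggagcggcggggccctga

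Of the 15 G1 genes, 8 were tested, 6 of these were lower in SI-ILC2s, none was higher, and Cdkn1a and Rb1 did not pass, against 29.6% of tested genes called lower. The median change of the 8 was -0.70 on the log2 scale, or -0.56 relative to all tested genes, and without a filter it was -0.46 over the 15. Both SI-ILC2 libraries were below both WAT-ILC2 libraries for 12 of the 15, all but Ccnd1, E2f2 and E2f3. This held for 30.8% of all genes and 45.9% of tested genes.

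Cdk2 (chromosome 10, 128697939 to 128705031), the kinase that drives entry into S phase with E and A cyclins, had the largest log2 change of the 21 tested genes. It had 2.43 and 1.97 RPKM in SI-ILC2s, against 10.5 and 8.73 RPKM in WAT-ILC2s. The intestinal mean was 0.23 times the adipose mean, with a log2 change of -1.73 ± 0.16 (limma adjusted p = 0.00072). Its exons overlap Pmel on the opposite strand, which did not exceed 1.22 RPKM in any library. Ccnd3 (chromosome 17, 47505051 to 47599691), a D-type cyclin, had 7.45 and 8.16 RPKM in SI-ILC2s, against 22.8 and 25.0 RPKM in WAT-ILC2s (log2 change -1.50 ± 0.14, limma adjusted p = 0.00068). Bysl, which overlaps Ccnd3 on the opposite strand, had 6.07 and 6.42 RPKM in SI-ILC2s, against 16.6 and 17.6 RPKM in WAT-ILC2s, so that reads of these genes may not be separable. Ccnd2 (chromosome 6, 127125162 to 127152193), the most abundant D-type cyclin here, had 24.1 and 26.4 RPKM in SI-ILC2s, against 52.1 and 52.3 RPKM in WAT-ILC2s (log2 change -1.02 ± 0.14, limma adjusted p = 0.0022). Ccnd1, the third D-type cyclin, had 0.165 and 0.522 RPKM in SI-ILC2s, against 0.108 and 0.205 RPKM in WAT-ILC2s, low and overlapping. Summed over the D-type cyclins, the intestine had 31.7 and 35.1 RPKM and the fat 75.0 and 77.5 RPKM. The ratio of Ccnd2 to Ccnd3 was 3.24 in each SI-ILC2 library and 2.29 and 2.09 in the WAT-ILC2 libraries.

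The partner kinases of the D-type cyclins were also lower in SI-ILC2s. Cdk4 had 11.7 and 10.8 RPKM in SI-ILC2s, against 19.4 and 14.7 RPKM in WAT-ILC2s (log2 change -0.55 ± 0.17, limma adjusted p = 0.038). This call was near the threshold and was lost with median-of-ratios scaling (adjusted p = 0.13), with quantile normalization (0.063), without the filter (0.075), and without SI-ILC2 replicate 1 (0.11), SI-ILC2 replicate 2 (0.16) or WAT-ILC2 replicate 1 (0.16). Tspan31, on the opposite strand of Cdk4, had 14.2 and 15.3 RPKM in SI-ILC2s, against 22.5 and 21.3 RPKM in WAT-ILC2s. Cdk6 had 0.822 and 1.11 RPKM in SI-ILC2s, against 2.03 and 2.16 RPKM in WAT-ILC2s (log2 change -0.66 ± 0.14, limma adjusted p = 0.0098, and 0.061 without SI-ILC2 replicate 1). Gm17590, on the opposite strand of Cdk6, had 1.32 and 1.38 RPKM in SI-ILC2s, against 1.81 and 2.36 RPKM in WAT-ILC2s. With a pseudocount of 0.1 the log2 change of Cdk6 was -1.05, as was that of Ccnd2. Cdk4 was the higher of the 2 kinases in every library, 6.82 to 14.2 times the level of Cdk6.

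None of the inhibitor genes among the 45 had higher values in both SI-ILC2 libraries. Outside the 45, Cdkn2a, which encodes the INK4 inhibitor p16, and Cdkn3 did, both below the filter. Cdkn2a, far below it, had 0.083 and 0.115 RPKM in SI-ILC2s, against 0 and 0.061 RPKM in WAT-ILC2s. Cdkn3 had 0.272 and 0.39 RPKM in SI-ILC2s, against 0.046 and 0.059 RPKM in WAT-ILC2s. Without a filter its limma adjusted p was 0.021, where 1300 of 21851 genes were called higher. Cdkn1c and, below the filter, Cdkn2b had both SI-ILC2 libraries below. Cdkn1c had 1.06 and 0.832 RPKM in SI-ILC2s, against 2.78 and 2.65 RPKM in WAT-ILC2s (limma adjusted p = 0.0027). Cdkn2d, the INK4 inhibitor p19 of CDK4 and CDK6, had 1.90 and 1.53 RPKM in SI-ILC2s, against 3.61 and 3.47 RPKM in WAT-ILC2s (log2 change -0.75 ± 0.15, limma adjusted p = 0.0077, and 0.0503 without SI-ILC2 replicate 2). Cdkn2c, the INK4 inhibitor p18, had 0.176 and 0.436 RPKM in SI-ILC2s, against 0.574 and 0.915 RPKM in WAT-ILC2s, below the filter. Cdkn1b, the inhibitor p27 of resting cells, had 0.680 and 0.624 RPKM in SI-ILC2s, against 1.64 and 0.952 RPKM in WAT-ILC2s, also below the filter. Cdkn2d, Cdkn2c and Cdkn1b thus all had their lower libraries in the intestine. Cdkn1a, the p53-induced inhibitor p21, was the most abundant inhibitor, at 16.5 RPKM in each SI-ILC2 library and at 22.5 and 17.7 RPKM in WAT-ILC2s, and its log2 change of -0.26 ± 0.16 had a limma adjusted p of 0.22.

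Rb1, which encodes the retinoblastoma protein that holds E2F in check, was at 10.3 RPKM in each SI-ILC2 library and at 12.3 and 12.9 RPKM in WAT-ILC2s (log2 change -0.26 ± 0.13, limma adjusted p = 0.14). E2f1, the activator E2F best known for S phase entry, had 0.218 and 0.238 RPKM in SI-ILC2s, against 0.607 and 0.885 RPKM in WAT-ILC2s. It stayed under the filter, and without a filter its limma adjusted p was 0.042, where 9.59% of genes were called lower. E2f2 and E2f3, the other activator genes, overlapped between tissues, at 0.189 to 0.463 RPKM in SI-ILC2s and 0.169 to 0.427 RPKM in WAT-ILC2s. Ccne1, the cyclin partner of CDK2, had 0.278 and 0.323 RPKM in SI-ILC2s, against 0.495 and 0.863 RPKM in WAT-ILC2s, separated but under the filter.

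**Figure D2:**
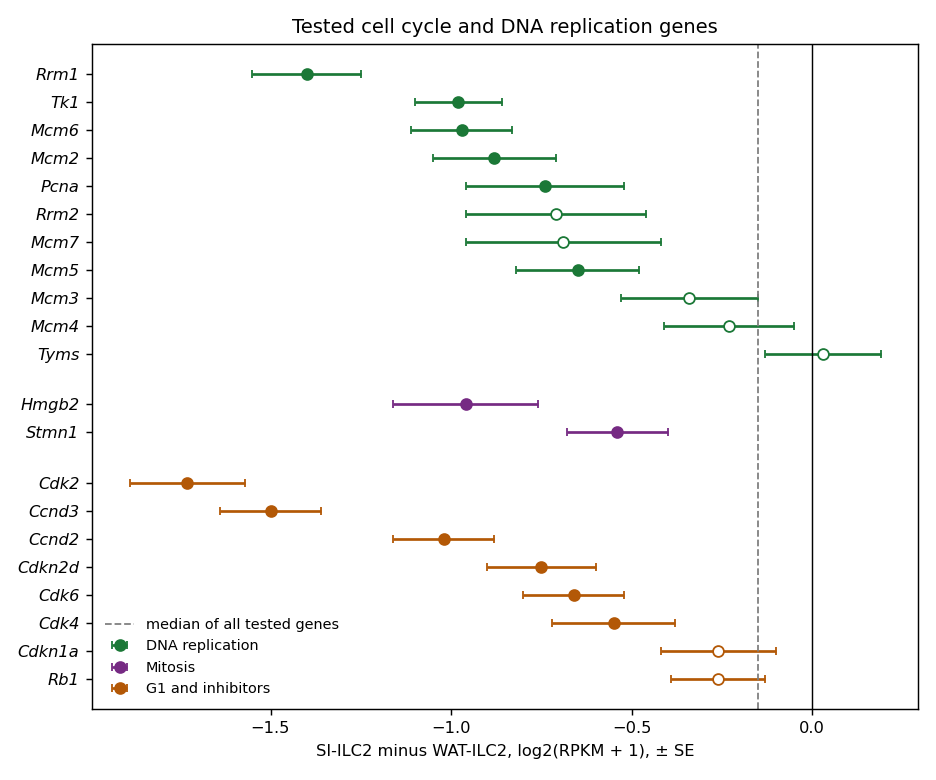
Log2 change (SI-ILC2 minus WAT-ILC2, log2(RPKM + 1), ± SE of limma) of the 21 tested genes by role, with filled points for genes that passed the adjusted threshold and open points for those that did not. The dashed line is the median of all tested genes at -0.15, and Cdk2 at -1.73 lies farthest from it.

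The genes were also described by the letters of their promoters, which the choice of genes did not use. A 300-base RefSeq window was matched for 10 of the 11 replication genes, 15 of the 19 mitosis genes and 12 of the 15 G1 genes. The E2F element was in 4 replication genes (Mcm3, Mcm5, Mcm6 and, in 1 of its 2 windows, Mcm7), in 1 mitosis gene (Cdk1) and in 1 G1 gene (E2f2), against 0.929% of all 27025 genes with a window. The CHR letters were in 11 mitosis genes (73.3%), 1 replication gene (10%) and 2 G1 genes (16.7%), against 20.2% of all genes. CCAAT was in 14 mitosis genes (93.3%), 8 replication genes (80%) and 7 G1 genes (58.3%), against 41.1% of all genes. A match is a description of these letters in this window and does not show binding. Of the replication genes with an E2F match, Mcm5 and Mcm6 were called lower in SI-ILC2s, whereas Mcm3 and Mcm7 did not pass. Rrm1, Tk1, Mcm2 and Pcna, also called lower, held no match to these letters.

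**Figure D3:**
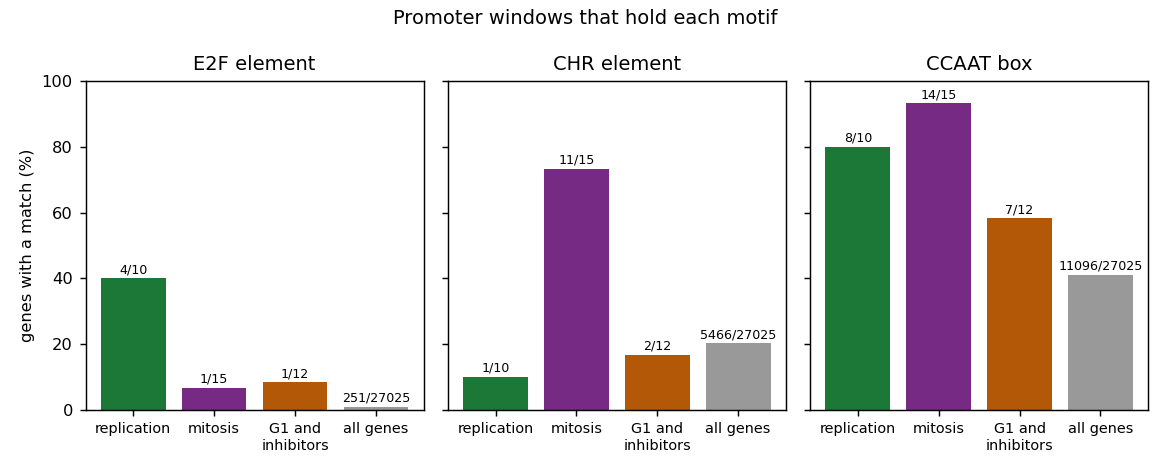
Percent of genes whose 300-base promoter window holds the E2F, CHR or CCAAT letters on either strand, for the 3 groups of genes and for all genes with a window. Counts over the bars give genes with a match and genes with a window, and the CHR bar is highest for mitosis genes at 73.3%.

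Other genes of the same pathway were taken from 3 further lists. Of 44 other replication genes, 29 were tested, 15 were lower in SI-ILC2s and 1 was higher, against 29.6% lower and 17.9% higher of all tested genes. The median log2 change was -0.44, against -0.15 for all tested genes, and without a filter -0.22 over the 44, against -0.01 for all genes. Of the 29, 5 had no SI-ILC2 library at 1 RPKM and passed the filter only through WAT-ILC2 values, and all 5 are among the 15 lower. Cdt1, which loads the MCM helicase, had 2.55 and 2.18 RPKM in SI-ILC2s, against 15.8 and 11.9 RPKM in WAT-ILC2s (log2 change -2.13 ± 0.18, limma adjusted p = 0.00053). Orc1, a subunit of the origin recognition complex, had 0.967 and 0.552 RPKM in SI-ILC2s, against 5.76 and 5.16 RPKM in WAT-ILC2s (log2 change -1.88 ± 0.17, limma adjusted p = 0.00062). Both log2 changes were larger than that of any MCM gene, although Orc1 passed the filter only through its WAT-ILC2 values. Also lower were Chaf1b, a subunit of the histone chaperone CAF-1 (0.548 and 0.366 RPKM in SI-ILC2s, 3.18 and 2.92 RPKM in WAT-ILC2s, again through WAT-ILC2 values only), and Orc4 (4.85 and 5.08 RPKM in SI-ILC2s, 11.9 and 10.8 RPKM in WAT-ILC2s). Orc6, another origin recognition gene, was the one that was higher, with 6.36 and 5.63 RPKM in SI-ILC2s, against 3.70 and 3.77 RPKM in WAT-ILC2s (limma adjusted p = 0.020, but 0.14 and 0.058 without SI-ILC2 replicate 1 and 2). Orc2, Orc3 and, under the filter, Cdc6 overlapped between the tissues.

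Of 41 other mitosis genes, 11 were tested, 5 were lower and 1 was higher, against 29.6% and 17.9% of all tested genes. The median log2 change of -0.17 was close to the -0.15 of all tested genes, and without a filter it was -0.02 over the 41. Cenpa, the centromeric histone, had 1.94 and 1.66 RPKM in SI-ILC2s, against 6.59 and 5.16 RPKM in WAT-ILC2s (log2 change -1.29 ± 0.17, limma adjusted p = 0.0019). Pttg1, which encodes securin, had 1.90 and 1.63 RPKM in SI-ILC2s, against 4.14 and 3.53 RPKM in WAT-ILC2s. Cdc25b, a phosphatase that activates CDKs, had 0.205 and 0.262 RPKM in SI-ILC2s, against 1.61 and 1.14 RPKM in WAT-ILC2s, and passed the filter only through the WAT-ILC2 values. Each of these had its libraries separated by tissue, as did Smc4, a condensin subunit (5.20 and 7.18 RPKM in SI-ILC2s, 9.33 and 13.1 RPKM in WAT-ILC2s, limma adjusted p = 0.028, but 0.14 without SI-ILC2 replicate 1). Prc1, a microtubule bundler of the spindle midzone, was higher, with 1.69 and 1.38 RPKM in SI-ILC2s, against 0.652 and 0.640 RPKM in WAT-ILC2s, and passed the filter only through its SI-ILC2 values. As among the 19, most of this list was scarce, with 30 of the 41 genes under 1 RPKM in every library.

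Of 32 other genes of G1 and its restraint, 23 were tested, 11 were lower and 2 were higher, against 29.6% and 17.9% of all tested genes. The median log2 change was -0.48, and without a filter -0.17 over the 32. Genes that restrain the cycle were among those lower in SI-ILC2s. Rbl2, the retinoblastoma relative p130 of resting cells, had 4.39 and 5.39 RPKM in SI-ILC2s, against 12.5 and 15.7 RPKM in WAT-ILC2s (log2 change -1.36 ± 0.17, limma adjusted p = 0.0018). Lin54, the DNA-binding subunit of the DREAM complex that silences cell cycle genes at rest, had 2.22 and 2.38 RPKM in SI-ILC2s, against 5.60 and 5.99 RPKM in WAT-ILC2s. Rbl2 and Lin54 thus moved the same way as Ccnd3 and Cdk2. Not all related genes of this list did. Lin37 and E2f5 overlapped between the tissues. Lin52 and, under the filter, Lin9 had both SI-ILC2 libraries below, but Lin52 did not pass (limma adjusted p = 0.13). E2f4 had 7.538 and 10.4 RPKM in SI-ILC2s, against 6.085 and 7.455 RPKM in WAT-ILC2s (limma adjusted p = 0.17). Tob1, an antiproliferative factor, had 12.5 and 13.1 RPKM in SI-ILC2s, against 28.0 and 25.2 RPKM in WAT-ILC2s. Trp53, the gene of the tumour suppressor p53, had 46.8 and 37.7 RPKM in SI-ILC2s, against 90.4 and 75.4 RPKM in WAT-ILC2s (limma adjusted p = 0.0064, and 0.052 without SI-ILC2 replicate 2). Higher in SI-ILC2s were Cables1, which encodes a CDK-binding protein, with 2.65 and 2.86 RPKM in SI-ILC2s, against 0.141 and 0.229 RPKM in WAT-ILC2s (log2 change 1.66 ± 0.12, limma adjusted p = 0.00036), and Btg1, an antiproliferative gene. Btg1 had 96.3 and 106 RPKM in SI-ILC2s, against 66.1 and 67.2 RPKM in WAT-ILC2s (limma adjusted p = 0.018), a call lost with rescaling to equal sums (0.054) and without SI-ILC2 replicate 1 (0.096) or 2 (0.16). Cables1 passed the filter only through its SI-ILC2 values, and Rbl1, among the 11 lower, only through its WAT-ILC2 values.

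**Figure D4:**
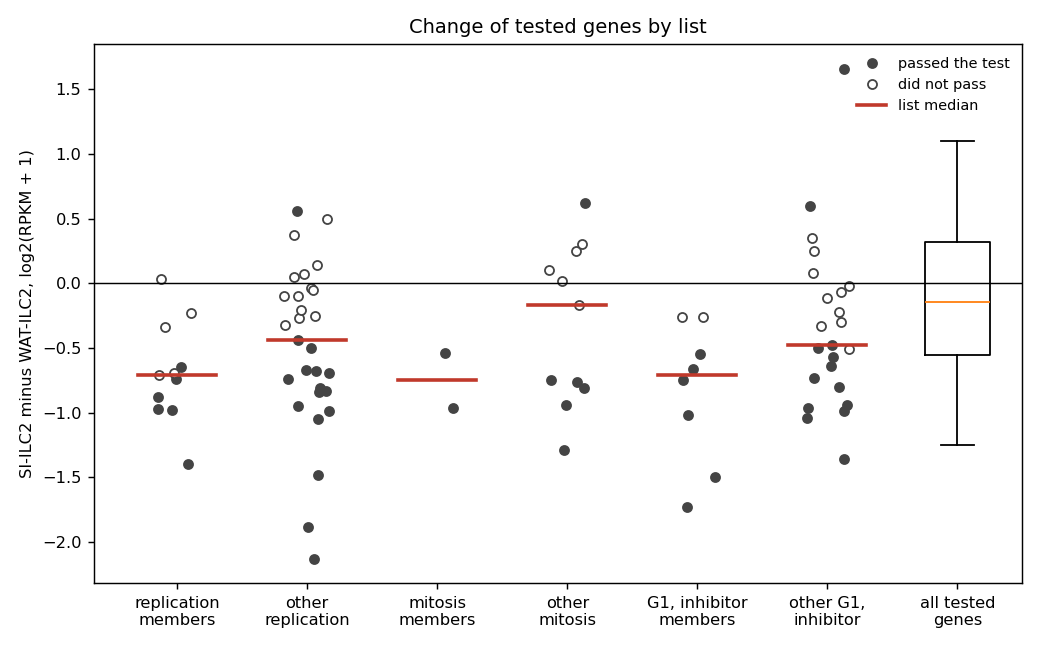
Log2 change (SI-ILC2 minus WAT-ILC2, log2(RPKM + 1)) of each tested gene in the 6 lists, filled where it passed the adjusted threshold, with the list median as a red line. The box at the right gives the quartiles of all 8230 tested genes with whiskers at percentiles 5 and 95, and the lowest points, Cdt1 and Orc1, lie under its lower whisker.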

How the data were processed

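The authors deposited a table of RPKM (22083 genes, 1 column for each of 2 SI-ILC2 and 2 WAT-ILC2 libraries), and sample titles gave the groups. The submitters' processing notes name STAR 2.6.0, featureCounts 1.6.0 and the build GRCm38 (mm10). The sources used here do not give the annotation, the use of strand or the handling of multi-mapped reads. Among the 45, exons of Ccna2, Cdc20, Plk1, Ube2c, Ccnd1, Ccnd2, Cdkn1a and Rb1 also overlap a gene on the opposite strand. Outside the 45, those of Orc1, Orc2, Orc4, Orc6, Cdkn1c, Rbl2, Lin37, E2f5, Prc1, Cdc25b and Cables1 do so. Exons of Mcm7, Top2a and Stmn1 overlap a gene on the same strand. Ccnd3, Tyms, Ccnb1, Ccnb2, Trp53 and Btg1 have named pseudogenes. The part of shared reads in the values of these genes was not tested. A count test was not used, because RPKM is a normalized unit. Scaling to library size lets a few abundant genes lower all others. Column sums ranged between 136705 and 158718. Depth was taken as the number of reads that made most low values of single-exon genes whole when multiplied by length (86.6% to 88.7% of them, with a tolerance of 0.1).

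Genes with at least 1 RPKM in at least 2 libraries (8230) were compared as log2(RPKM + 1) with limma 3.58.1 in R 4.3.3 (variance trend, no covariate, 4.4 prior and 2 residual degrees of freedom), SI-ILC2 minus WAT-ILC2, with Benjamini-Hochberg adjustment over all of them. With so few libraries no exact permutation test of 1 gene can reach 0.05. The steps were tested on simulated data. The genes and lists were chosen with earlier results of these data known. All 45 genes are accounted for. Of the further lists up to 4 called genes per direction with the largest change are named, beside a few other genes. Sgo1, Jchain and Adgre1 were matched by the older symbols Sgol1, Igj and Emr1. Coordinates came from GENCODE M21 (GRCm38) and promoters from RefSeq (GRCm38.p6). Alternatives were another pseudocount, no filter, 3 scalings, no variance trend, a replicate block and leaving out each library. Summaries used pandas 2.3.3 and numpy 2.4.6 under Python 3.11.15, and figures matplotlib 3.10.9. A gene of the marker lists is not reported here.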

Additional observations from a re-analysis of the deposited data

How the results depend on the processing

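Of the 14 genes called lower, 7 kept the call under all 11 alternatives, and the other losses stand beside each gene above. With a pseudocount of 0.1 the median log2 change was -1.03 for the G1 genes and -0.69 for the other replication genes. With median-of-ratios scaling 1 mitosis gene was lower, 3 other replication genes were higher and the G1 median was -0.58, and with quantile normalization these were 1, 3 and -0.54, with -0.25 as the median of the other replication genes. Relative to the median of all tested genes, the replication median was between -0.52 and -0.70 and the G1 median between -0.52 and -0.84 over the 11 alternatives, farthest from 0 with a pseudocount of 0.1. With equal sums 1 other G1 gene was higher, and Tyms was at -0.05. Leaving out each library in turn gave 1492 to 2551 genes lower among all tested, 4 to 7 replication genes, 0 to 2 mitosis genes, 4 to 6 G1 genes, 3 to 5 other mitosis genes and 6 to 11 other G1 genes lower, and 0 to 2 other replication, 1 to 2 other mitosis and 1 to 2 other G1 genes higher. Tyms ranged between -0.12 and 0.17 in these fits. The cause of these changes was not tested. In fits without 1 library, the same genes were tested, and the lone library is assumed to vary like the other tissue.

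With replicate number as a block, 2271 genes were higher and 3430 lower among all tested, 9 replication and 8 G1 genes were lower, and 3 other replication and 2 other mitosis genes were higher. Differences between replicates 1 and 2 correlated between tissues across genes (r = 0.572), but with 2 pairs and no label for a shared mouse or day the libraries share only a number. Values near 0.1 RPKM rest on few reads per kilobase, although a long gene such as Mki67 (10061 exon bases) gathers more in all. The added 1 RPKM also shrinks log2 changes of genes at such levels, with or without the filter. Both limit the differences that can be detected in most mitotic genes.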

Other observations

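Ratios within a library, which no scaling of whole libraries moves, differed between the tissues for several genes described above. Cdk4 exceeded Cdk2 4.81 and 5.47 times in SI-ILC2s and 1.84 and 1.69 times in WAT-ILC2s. Rb1 exceeded Rbl2 2.36 and 1.92 times in SI-ILC2s, whereas in WAT-ILC2s the ratio was 0.984 and 0.819. Cdt1 exceeded Gmnn, which encodes its inhibitor geminin and is made in S and G2 phase, 3.55 and 5.72 times in SI-ILC2s and 34.4 and 28.3 times in WAT-ILC2s. Gmnn itself had 0.718 and 0.381 RPKM in SI-ILC2s, against 0.46 and 0.422 RPKM in WAT-ILC2s. These ratios were chosen after their values were seen and were not tested.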
